A study of Homo sapiens with 16 samples.

Results

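The AP-1 transcription factors followed here are 9 genes, taken as the rows of the count table that carry the symbols FOS, FOSB, FOSL1, FOSL2, JUN, JUNB, JUND, ATF3 and BATF3. The table holds 35993 gene symbols, of which 21297 had enough counts to be tested, and all 9 AP-1 genes were among them. RNA-seq was performed on the human cell lines RT112, TCCSUP, 253J and J82, 4 established lines from bladder cancer that the labels give as wild type. Cells received CM-1758, a histone deacetylase (HDAC) inhibitor, for 48 h at the IC50 of their own cell line, the concentration that inhibits to the midpoint of the maximal effect, so the dose differs between cell lines. Control cells received the DMSO vehicle at 0.01%, and nothing else separates control from treated cells in the labels. The study's legend calls the control cells untreated, and the labels were followed here. Each of the 8 groups has 2 libraries, which makes 16 in all. Each group comes from 1 established cell line, and TCCSUP was kept in a different culture medium (EMEM) from the other cell lines (DMEM), so cell line and medium cannot be told apart for TCCSUP.

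AP-1 is a dimer. Proteins of the JUN family (JUN, JUNB, JUND) pair among themselves or with proteins of the FOS family (FOS, FOSB, FOSL1, FOSL2) or with relatives such as ATF3 and BATF3 through a leucine zipper, and the pair binds DNA at the sequence TGACTCA or at the closely related cyclic AMP response element TGACGTCA. FOS, FOSB, JUN, JUNB and ATF3 are immediate-early genes, transcribed within minutes of a growth factor or stress signal and usually for a short time, whereas FOSL1 and FOSL2 follow later and JUND is made more steadily. In epithelial tumors AP-1 is known for driving proliferation, invasion and inflammatory gene expression.

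The sequences just upstream of the start site are shown for 4 members that stand out in the results. FOS and FOSB were the pair of members that varied most alike over the libraries, JUNB rose in 3 cell lines, and JUND was the member that rose in some cell lines and fell in others. Any part of these sequences in the responses was not tested. Each run is the 250 bases before the start site in RefSeq on GRCh38.p14, written 5′ to 3′ on the strand of the gene. Capitals mark TGACGT or its reverse complement ACGTCA, the whole element TGACGTCA in JUND, and the TATA sequence TATAAA.

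FOS, chr14:75278578-75278827, plus strand: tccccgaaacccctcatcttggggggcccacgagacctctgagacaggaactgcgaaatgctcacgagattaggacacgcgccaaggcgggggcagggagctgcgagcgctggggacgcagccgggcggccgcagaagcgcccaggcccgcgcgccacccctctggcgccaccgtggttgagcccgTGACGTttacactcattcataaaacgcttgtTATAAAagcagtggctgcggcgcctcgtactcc

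FOSB, chr19:45467746-45467995, plus strand: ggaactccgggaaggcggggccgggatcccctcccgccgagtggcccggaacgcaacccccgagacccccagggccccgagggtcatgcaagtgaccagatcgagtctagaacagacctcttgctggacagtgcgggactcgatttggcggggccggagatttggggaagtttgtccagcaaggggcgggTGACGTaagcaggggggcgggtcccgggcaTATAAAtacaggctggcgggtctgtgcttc

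JUNB, chr19:12791236-12791485, plus strand: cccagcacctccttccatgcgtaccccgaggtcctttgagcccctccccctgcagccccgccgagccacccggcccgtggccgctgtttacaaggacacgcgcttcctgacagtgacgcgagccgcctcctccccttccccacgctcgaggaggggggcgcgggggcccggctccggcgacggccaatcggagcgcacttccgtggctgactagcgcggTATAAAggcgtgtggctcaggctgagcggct

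JUND, chr19:18281623-18281872, minus strand: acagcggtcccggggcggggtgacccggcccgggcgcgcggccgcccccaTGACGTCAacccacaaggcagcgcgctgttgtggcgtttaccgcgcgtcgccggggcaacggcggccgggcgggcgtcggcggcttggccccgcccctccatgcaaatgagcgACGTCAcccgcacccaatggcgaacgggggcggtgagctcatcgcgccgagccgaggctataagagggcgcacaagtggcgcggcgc

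Of the 9 members, 7 had an entry in the promoter table, and ATF3 had 2 start sites. The AP-1 sequence (TGACTCA or TGAGTCA) was in 0 of these 7 members and in 4.2% of 35116 promoters of the same 250 bases, and the serum response (CArG) box was in 0 members and in 1.16% of promoters. TGACGTCA was found in JUND alone, from -200 to -193 relative to the start site, and in 1.65% of promoters. TGACGT was placed at nearly the same distance in FOS (-64 to -59), FOSB (-60 to -55) and FOSL2 (-66 to -61), and in JUND these letters or their reverse complement occurred 3 times, 2 of them within TGACGTCA. This shorter motif was in 7.1% of promoters and was chosen after the sequences had been read, as was TATAAA or its reverse complement TTTATA, which lay at -33 in FOS, -30 in FOSB and -31 in JUNB, at -230 in 1 of the 2 ATF3 starts, and in 10.7% of promoters. Both strands were searched for every motif. Only exact matches within the 250 bases were counted. Variants such as TGACATCA, which JUN and 1 of the 2 ATF3 starts hold, and sites farther upstream were not counted.

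Total counts ran from 22506431 to 32537104 per library. KRT8, KRT18 and KRT19, keratins of simple epithelium, were present in every library, whereas the urothelial genes KRT20 and UPK2 had 0 counts in the control libraries of 253J, J82 and TCCSUP. Of 6 blood and vessel markers, CD3E was at 0 in all controls, and PTPRC and CD14 reached 9.58 and 11.1 CPM in control TCCSUP. The summed level of these 6 markers was 20.5 to 21.4 CPM in control and 10.1 in both treated TCCSUP libraries, and at most 7.04 in any library of the other cell lines. The summed level of 11 epithelial markers was lower with CM-1758 in 253J (1871 to 2362 CPM against 3180 to 4332) and TCCSUP (388 to 479 against 1234 to 1366), overlapped between the groups in J82, and was 5751 to 6542 against 6702 to 6864 in RT112. In control 253J and TCCSUP most of the sum came from KRT8, KRT18 and KRT19. The number of the 11 markers above 1 CPM went the other way, from 5 to 8 in 253J and from 7 to 9 in TCCSUP. It went from 6 to 7 in J82 and stayed at 11 in RT112. The part of these shifts in the AP-1 values was not tested.

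The 2 control libraries of J82 stood apart from each other in AP-1 genes, which bears on every J82 result below. CPM is the count scaled to a common library size after normalization of the library sizes by trimmed mean of M values (TMM). Replicate 3 exceeded replicate 1 by 1.67 in FOS and by 2.17 in FOSB on the log2 CPM scale, and was lower by more than 1 in FOSL1 (-1.26), JUNB (-1.37) and BATF3 (-1.37). JUN (0.00) and JUND (0.07) differed little in these libraries. In all, 5 of 9 members differed by more than 1 between the J82 controls, against 11.3% of all tested genes, and in the other 7 groups the number was 0 to 2. The median absolute difference was 1.26 over the members and 0.29 over all tested genes. Other immediate-early genes did not follow FOS in these libraries: EGR1 had 121 reads in replicate 1 and 3 in replicate 3, NR4A1 had 140 and 16, and 8 of 24 such genes were lower in replicate 3 by more than 1 while 0 were higher by that much. EGR2 and EGR4, 2 of these 8, rest on 2 reads against 0, so their difference depends on the prior count.

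**Figure D1:**
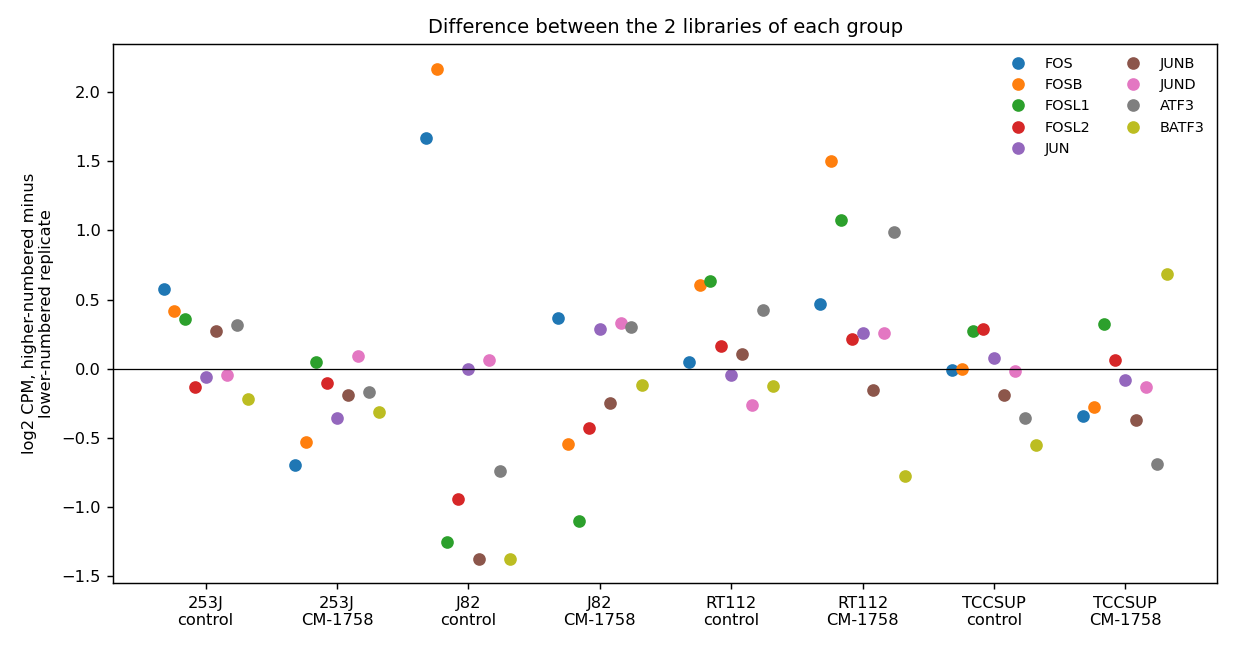
Difference in log2 CPM between the 2 libraries of each group (higher-numbered minus lower-numbered replicate), 1 point per AP-1 gene. The J82 control column spreads widest, from -1.37 to 2.17, and the RT112 CM-1758 column reaches 1.5 in FOSB.

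CM-1758 was compared with control in each cell line by edgeR's quasi-likelihood test on all tested genes, with a Benjamini-Hochberg adjusted p under 0.05 as the limit for a call. In 253J, 6 of 9 members rose and 0 fell, where 28.8% of all tested genes were called higher and 22.4% lower. In RT112, 6 rose and 0 fell (all genes 27.4% higher and 20.2% lower), and in TCCSUP, 5 rose and 2 fell (all genes 32% higher and 22.1% lower). In J82, 3 rose and 2 fell, where 24% of all genes were called higher and 18.5% lower. The median log2 fold change of the 9 members was 1.13 in 253J, 1.17 in RT112, 1.03 in TCCSUP and 0.25 in J82, and the median of all tested genes was 0.10, 0.12, 0.20 and 0.05. Under a stricter rule (log2 fold change over 2 or under -2 and an adjusted p under 0.01), FOS, FOSB and JUNB were higher in 253J (9.43% of all genes), FOS, FOSB, ATF3 and BATF3 in RT112 (11.4%), FOS and FOSB in TCCSUP (14.2%), and 0 members in J82 (8.81%). FOSL1 was lower in J82 (1.24% of all genes), and 0 members were lower in 253J (3.5%), RT112 (1.39%) or TCCSUP (3.31%).

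**Figure D2:**
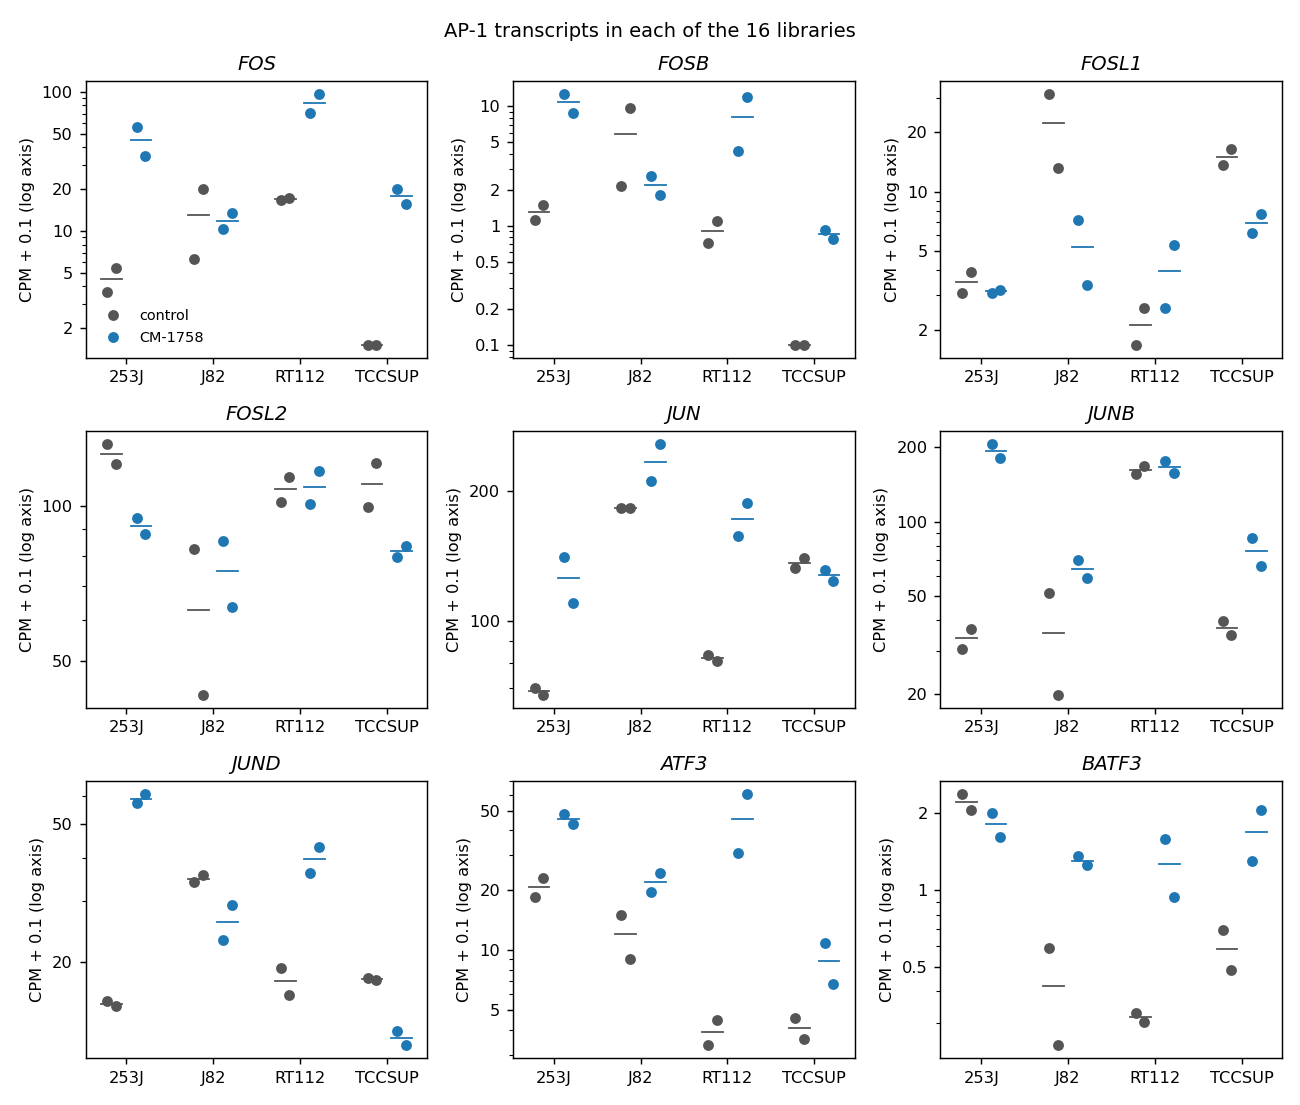
CPM in each of the 16 libraries for the 9 AP-1 genes, on log axes with 0.1 added; points are libraries, short lines are the means of 2, grey is control and blue is CM-1758. Treated FOS lies above control in 253J, RT112 and TCCSUP and between the 2 controls in J82. FOSL2 spans 42.9 to 132 CPM in control and 63.6 to 116.6 CPM in treated libraries.

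FOS, the founding FOS protein and a marker of recent signalling, rose steeply in 3 cell lines. In control libraries it stood at 3.55 and 5.32 CPM in 253J, 6.19 and 19.8 in J82, 16.7 and 17.3 in RT112, and 1.42 and 1.42 in TCCSUP. With CM-1758 it stood at 55.9 and 34.4 in 253J, 10.3 and 13.3 in J82, 70.4 and 97.2 in RT112, and 19.9 and 15.7 in TCCSUP. Treated and control libraries were far apart in 253J, RT112 and TCCSUP, whereas in J82 both treated values fell between the 2 controls. The log2 fold change was 3.35 ± 0.42 (SE) in 253J (adjusted p = 9.447e-06), 2.30 ± 0.38 in RT112 (adjusted p = 0.0001833) and 3.64 ± 0.47 in TCCSUP (adjusted p = 1.499e-05). In J82 it was -0.14 ± 0.38 (adjusted p = 0.836), and it became 0.93 (adjusted p = 0.03539) without control replicate 3 and 0.02 with scaling by library size alone. In these bulk libraries a larger share of cells making a transcript and more transcript per cell cannot be told apart.

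Control levels of FOS were highest in RT112 (17.0 ± 0.431 CPM, SD, n = 2) and J82 (13 ± 9.63), which did not differ beyond their spread (adjusted p = 0.4331). 253J (4.44 ± 1.26) lay below both, and TCCSUP (1.42 ± 0.00554) lay below 253J (adjusted p = 0.01193). In treated TCCSUP cells FOS averaged 17.8 ± 2.98 CPM, near the control level of RT112.

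FOSB, a close relative of FOS that is also induced rapidly, rose in the same 3 cell lines. Control libraries held 1.01 and 1.38 CPM in 253J, 2.05 and 9.49 in J82, and 0.621 and 0.983 in RT112, and TCCSUP had 0 reads in both. With CM-1758 the values were 12.6 and 8.74 in 253J, 2.51 and 1.69 in J82, 4.15 and 11.9 in RT112, and 0.824 and 0.669 in TCCSUP (22 and 17 reads). The groups were separate in 253J, RT112 and TCCSUP and overlapped in J82, where the control mean rested on replicate 3. The log2 fold change was 3.16 ± 0.64 in 253J (adjusted p = 0.0009052) and 3.32 ± 0.66 in RT112 (adjusted p = 0.0009647). In TCCSUP, FOSB was at least 6.39-fold higher against a floor of 3 reads per control library (adjusted p = 0.005769). In J82 the log2 fold change was -1.46 ± 0.60 (adjusted p = 0.06485), and it was 0.03 without control replicate 3 and -2.18 (adjusted p = 0.003125) without control replicate 1.

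FOSL1 (FRA-1), a FOS protein linked to invasive and mesenchymal tumor cells, fell in 2 cell lines. Its control level was highest in J82 (31.3 and 13.1 CPM) and TCCSUP (13.5 and 16.3), which did not differ beyond their spread (adjusted p = 0.275), and low in 253J (2.97 and 3.83) and RT112 (1.57 and 2.47). With CM-1758 it was 7.05 and 3.25 in J82, 6.06 and 7.59 in TCCSUP, 2.97 and 3.07 in 253J, and 2.47 and 5.26 in RT112. The treated libraries were below the controls in the cell lines that started high and overlapped them in 253J and RT112. FOSL1 fell by 2.11 on the log2 scale in J82 (SE 0.43, adjusted p = 0.001176) and by 1.13 in TCCSUP (SE 0.42, adjusted p = 0.03597), and was -0.17 ± 0.46 in 253J (adjusted p = 0.821) and 0.94 ± 0.47 in RT112 (adjusted p = 0.1146). The J82 call held when any 1 library was left out, at -1.35 to -2.69, whereas the TCCSUP call was lost without any 1 of its 4 libraries, at -0.98 to -1.30, and with scaling by library size alone, at -0.81. In RT112 the value without CM-1758 replicate 1 was 1.38 (adjusted p = 0.04443).

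FOSL2 (FRA-2), the most abundant FOS transcript in control cells per length of exon in 3 cell lines, was not called in any cell line. Control and treated libraries held 132 and 120.1 against 94.4 and 88.0 CPM in 253J, 82.3 and 42.9 against 85.5 and 63.6 in J82, 101.3 and 113.6 against 100.5 and 116.6 in RT112, and 99.1 and 120.7 against 79.6 and 83.3 in TCCSUP. Treated libraries lay below control without overlap in 253J and TCCSUP, and the groups overlapped in J82 and RT112. The log2 fold changes were -0.47, 0.25, 0.01 and -0.43 in 253J, J82, RT112 and TCCSUP, each with an SE of 0.23 (adjusted p = 0.1063, 0.4126, 1 and 0.1279). When each cell line was fitted alone with edgeR, FOSL2 was called lower in 253J (-0.48, adjusted p = 0.01273) and TCCSUP (-0.44, adjusted p = 0.005397). In the main model the J82 value turned to -0.14 without control replicate 3 and was 0.80 without control replicate 1. The control level was lower in J82 (62.6 ± 27.9 CPM, SD, n = 2) than in the other cell lines (107 to 126), which did not differ among themselves beyond their spread.

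JUN (c-Jun), which can form AP-1 without a FOS partner, rose in 253J and RT112. Control libraries had 70.0 and 67.3 CPM in 253J, 182.8 and 182.7 in J82, 83.4 and 80.8 in RT112, and 132.8 and 140.2 in TCCSUP. Treated libraries had 140.7 and 110.1 in 253J, 210.4 and 257.1 in J82, 157.0 and 187.6 in RT112, and 130.9 and 124.0 in TCCSUP. The treated pair lay above the control pair in 253J, J82 and RT112 and just below it in TCCSUP. JUN rose by a log2 fold change of 0.87 ± 0.15 in 253J (adjusted p = 0.0001783) and 1.07 ± 0.15 in RT112 (adjusted p = 3.956e-05). In J82 the value was 0.35 ± 0.15 (adjusted p = 0.0646). It was called with RLE normalization (0.44, adjusted p = 0.02487), DESeq2 in 1 model (0.44, adjusted p = 0.006414) and library size alone (0.50, adjusted p = 0.0103). The same held with at least 10 counts in every library (0.47, adjusted p = 0.01294) and with replicate number as a block (0.35, adjusted p = 0.03637). JUN in J82 was not called without a filter on low counts, or with J82 fitted alone in edgeR or DESeq2. The TCCSUP value was -0.10 ± 0.15 (adjusted p = 0.5997). It turned to 0.21 with scaling by library size alone, where the median of all genes moved by 0.311. The order of control levels was J82, TCCSUP, RT112 and 253J, and the last pair did not differ beyond its spread (adjusted p = 0.1602).

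JUNB, a JUN protein with weaker activating capacity that can counter JUN, rose in 3 cell lines and was already high in the fourth. Control RT112 held 156.2 and 168.1 CPM, while controls of 253J (30.4 and 36.8), J82 (51.2 and 19.7) and TCCSUP (39.5 and 34.7) were low and did not differ among themselves beyond their spread. With CM-1758 it reached 206.7 and 181.3 in 253J, 69.9 and 58.8 in J82, and 85.6 and 66.3 in TCCSUP, and stood at 175.3 and 158.0 in RT112. The treated libraries were above the controls in the 3 cell lines that started low and overlapped them in RT112. JUNB rose by 2.53 ± 0.31 on the log2 scale in 253J (adjusted p = 7.069e-06), 1.03 ± 0.29 in TCCSUP (adjusted p = 0.008269) and 0.86 ± 0.29 in J82 (adjusted p = 0.02796), and was 0.04 ± 0.29 in RT112 (adjusted p = 0.9603). The J82 value was 0.33 (adjusted p = 0.2136) without control replicate 3 and 0.81 (adjusted p = 0.08961) without CM-1758 replicate 1, and the call was also lost when J82 was fitted alone, with edgeR (0.87, adjusted p = 0.1035) or DESeq2 (0.88, adjusted p = 0.05732). The TCCSUP value was 0.94 (adjusted p = 0.06457) without control replicate 2 and 0.83 (adjusted p = 0.07477) without CM-1758 replicate 1.

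JUND, the JUN protein usually present in resting cells, moved in opposite directions. Control libraries had 15.4 and 14.9 CPM in 253J, 19.2 and 16 in RT112, 17.9 and 17.7 in TCCSUP, and 33.9 and 35.5 in J82, the highest control level. Treated libraries had 57.1 and 60.9 in 253J, 36 and 42.9 in RT112, 12.6 and 11.5 in TCCSUP, and 23.1 and 29.1 in J82. No treated value fell within the control range of its cell line. JUND rose by 1.97 ± 0.15 on the log2 scale in 253J (adjusted p = 1.345e-07) and by 1.17 ± 0.15 in RT112 (adjusted p = 1.863e-05). It fell by 0.57 in TCCSUP (SE 0.15, adjusted p = 0.005932) and by 0.41 in J82 (SE 0.15, adjusted p = 0.03472). It was the only member called higher in some cell lines and lower in others, which held for 12.9% of all tested genes, and with ATF3 it was 1 of 2 members called in all 4 cell lines in either direction (15.4% of genes). The TCCSUP value was -0.26 (adjusted p = 0.145) with scaling by library size alone and -0.50 (adjusted p = 0.05551) without CM-1758 replicate 2. The J82 fall was not called with RLE normalization (-0.32, adjusted p = 0.0948), with DESeq2 in 1 model (adjusted p = 0.0868) or without a filter on low counts (adjusted p = 0.062). It was also not called with at least 10 counts in every library (-0.30, adjusted p = 0.0973). With J82 fitted alone the call was lost in edgeR (-0.40, adjusted p = 0.1708) and DESeq2 (-0.40, adjusted p = 0.2677). The value was -0.17 to -0.59 when 1 library at a time was left out.

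ATF3, a stress-induced bZIP factor that pairs with JUN proteins, was the only member called higher in all 4 cell lines, which held for 6.69% of tested genes. Control and treated libraries held 18.4 and 22.9 against 47.9 and 42.6 CPM in 253J, 14.9 and 8.91 against 19.5 and 24.1 in J82, 3.24 and 4.37 against 30.5 and 60.6 in RT112, and 4.47 and 3.48 against 10.8 and 6.69 in TCCSUP. Treated libraries exceeded their controls everywhere, by a small margin in J82 and TCCSUP. The log2 fold change was 3.58 ± 0.35 in RT112 (adjusted p = 1.454e-06), 1.13 ± 0.31 in 253J (adjusted p = 0.006357), 1.14 ± 0.35 in TCCSUP (adjusted p = 0.01226) and 0.88 ± 0.31 in J82 (adjusted p = 0.03518). RT112 and TCCSUP had control levels of 3.80 ± 0.802 and 3.98 ± 0.698 CPM (SD, n = 2), a log2 difference of -0.06 ± 0.36 (adjusted p = 0.9548), and their effects differed by 2.44 ± 0.48 on the log2 scale (adjusted p = 0.001475). Outside RT112 single libraries carried the call: it was lost at 0.98 in 253J without control replicate 2 (adjusted p = 0.06516), at 0.55 in J82 without control replicate 3 (adjusted p = 0.2566) and 0.72 without CM-1758 replicate 3 (adjusted p = 0.1683), and in TCCSUP at 0.97 without control replicate 2 (adjusted p = 0.09503) and 0.74 without CM-1758 replicate 1 (adjusted p = 0.1569).

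BATF3, best known for its part in dendritic cell development, was a scarce transcript that rose in 3 cell lines. Control and treated libraries held 2.28 and 1.95 against 1.90 and 1.52 CPM in 253J, 0.494 and 0.145 against 1.25 and 1.15 in J82, 0.229 and 0.203 against 1.49 and 0.839 in RT112, and 0.594 and 0.383 against 1.20 and 1.97 in TCCSUP. Treated libraries were above the controls in J82, RT112 and TCCSUP and just below them in 253J. The log2 fold change was 1.91 ± 0.53 in J82 (adjusted p = 0.009447), 2.40 ± 0.56 in RT112 (adjusted p = 0.002572), 1.69 ± 0.50 in TCCSUP (adjusted p = 0.01064) and -0.31 ± 0.44 in 253J (adjusted p = 0.5997). In control cells 253J (2.12 ± 0.232 CPM, SD, n = 2) stood above the other cell lines (0.216 to 0.488), which did not differ among themselves beyond their spread. The J82 call was lost at 1.28 without control replicate 3 (adjusted p = 0.09875) and at 1.93 with DESeq2 fitted to J82 alone (adjusted p = 0.1338), and the TCCSUP call at 1.40 without control replicate 2 (adjusted p = 0.0908) and at 1.29 without CM-1758 replicate 2 (adjusted p = 0.09629).

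**Figure D3:**
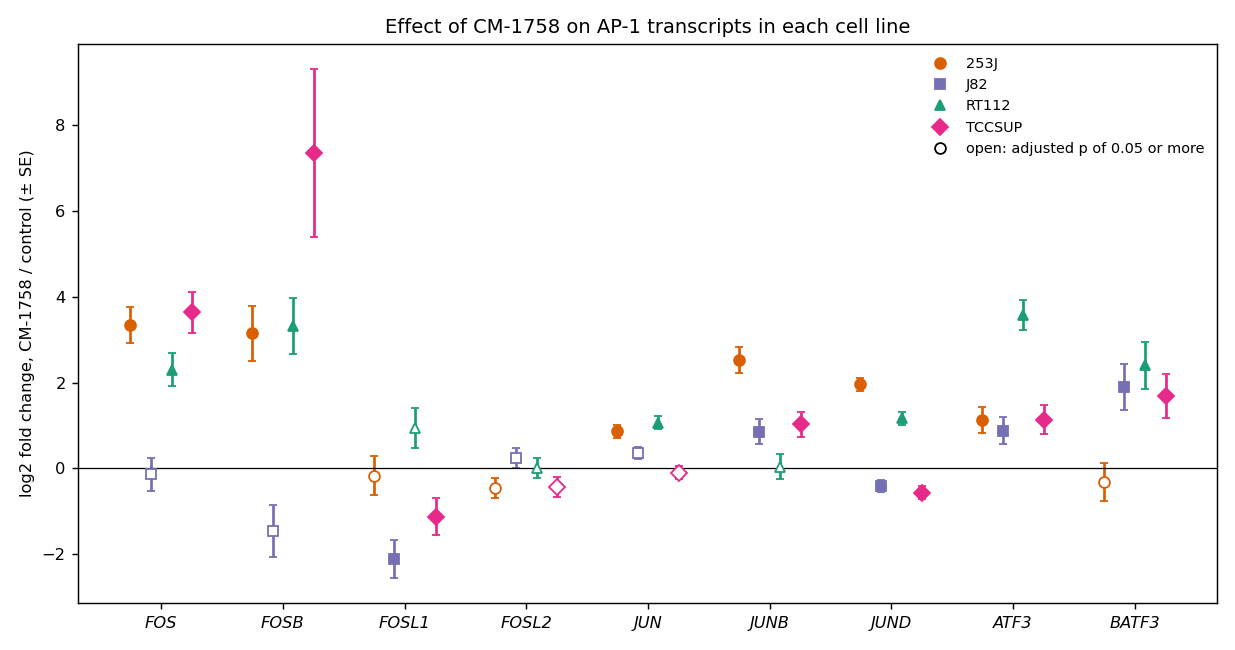
Log2 fold change of CM-1758 over control with its standard error for each AP-1 gene and cell line; filled symbols have an adjusted p under 0.05 and open symbols do not. FOSB in TCCSUP, drawn at 7.35, had 0 reads in both controls, so that position depends on the model's prior and is no bound.

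Whether the effect of CM-1758 differed between cell lines was tested directly with an F test over the 4 effects. It differed for 8 of 9 members, all but FOSL2 (adjusted p = 0.1775), where 51.9% of all tested genes differed. JUND had the smallest adjusted p (4.814e-07), and FOS (0.0002714), ATF3 (0.0005645), FOSB (0.0008074), JUN (0.001067), JUNB (0.001146), FOSL1 (0.005386) and BATF3 (0.01476) followed. With J82 left out of the comparison, an alternative chosen after its controls had been seen, FOS (adjusted p = 0.1337) and FOSB (0.4344) no longer differed between 253J, RT112 and TCCSUP, and JUND (1.251e-06), JUNB (0.0006621), ATF3 (0.0006697), JUN (0.0007268), BATF3 (0.01147) and FOSL1 (0.04226) still did, where 45.2% of all genes did.

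Between pairs of cell lines, JUND effects differed in 5 of 6 pairs, all but J82 and TCCSUP (difference 0.16 ± 0.21, adjusted p = 0.7046). The number of members whose effects differed was 6 for 253J and J82 (30% of all genes), 4 for 253J and RT112 (30%), 4 for 253J and TCCSUP (28.6%), 6 for J82 and RT112 (22.2%), 2 for J82 and TCCSUP (22.2%) and 4 for RT112 and TCCSUP (27.5%). 253J differed from every other cell line in JUNB, by 1.67 ± 0.41 from J82 (adjusted p = 0.006557), 2.49 ± 0.41 from RT112 (adjusted p = 0.0003663) and 1.5 ± 0.41 from TCCSUP (adjusted p = 0.01335). RT112 differed from every other cell line in ATF3, whose effect minus that of RT112 was -2.45 ± 0.45 in 253J (adjusted p = 0.0008223) and -2.71 ± 0.46 in J82 (adjusted p = 0.0006321). JUN effects in RT112 exceeded those in TCCSUP by 1.17 ± 0.21 (adjusted p = 0.0006721), and those in 253J and RT112 differed by -0.20 ± 0.21 (adjusted p = 0.5452). The FOS effect of 253J exceeded that of J82 by 3.49 ± 0.56 (adjusted p = 0.0002652), and the FOS effect of J82 minus that of RT112 was -2.44 ± 0.54 (adjusted p = 0.004255) and minus that of TCCSUP -3.78 ± 0.61 (adjusted p = 0.0004277). Each of these rests on the 2 unlike J82 controls.

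Averaged over the 4 cell lines, 7 members rose (all genes 36.9%) and 1 fell (all genes 25%). The average log2 fold change was 3.09 for FOSB, 2.29 for FOS, 1.68 for ATF3, 1.42 for BATF3, 1.12 for JUNB, 0.55 for JUN and 0.54 for JUND. The FOSB average includes the fitted TCCSUP value, which is no bound. FOSL1 averaged -0.62 ± 0.22 (adjusted p = 0.02496), and -0.12 (adjusted p = 0.7733) with J82 left out. FOSL2 averaged -0.16 (adjusted p = 0.2631), and 0.06 with scaling by library size alone.

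In control cells the level of 9 of 9 members differed between cell lines by F test, where 78.8% of all tested genes did. By pairs, 8 members differed between 253J and J82 (53.1% of all genes), 4 between 253J and RT112 (54.3%), 6 between 253J and TCCSUP (53.1%), 7 between J82 and RT112 (52.1%), 6 between J82 and TCCSUP (48%) and 5 between RT112 and TCCSUP (51.5%). Levels of different genes were compared as CPM per kilobase of exon, with the union of exons in GENCODE 29 as the length. On this scale JUN was the highest member in control 253J (19.4 ± 0.538, SD, n = 2), J82 (51.6 ± 0.0099) and TCCSUP (38.6 ± 1.48), and JUNB was highest in control RT112 (89.1 ± 4.63). With CM-1758 JUNB was highest in 253J (107 ± 9.89), RT112 (91.6 ± 6.72) and TCCSUP (41.7 ± 7.49), and JUN in J82 (66.0 ± 9.32). In TCCSUP the margin of JUNB over JUN (36 ± 1.37) was within the spread of its libraries. The margin of JUN over FOSL2 (18.5 ± 1.19) and JUNB (18.4 ± 2.48) in control 253J was also within their spread. FOSB had the lowest level in the controls of 253J, RT112 and TCCSUP.

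**Figure D4:**
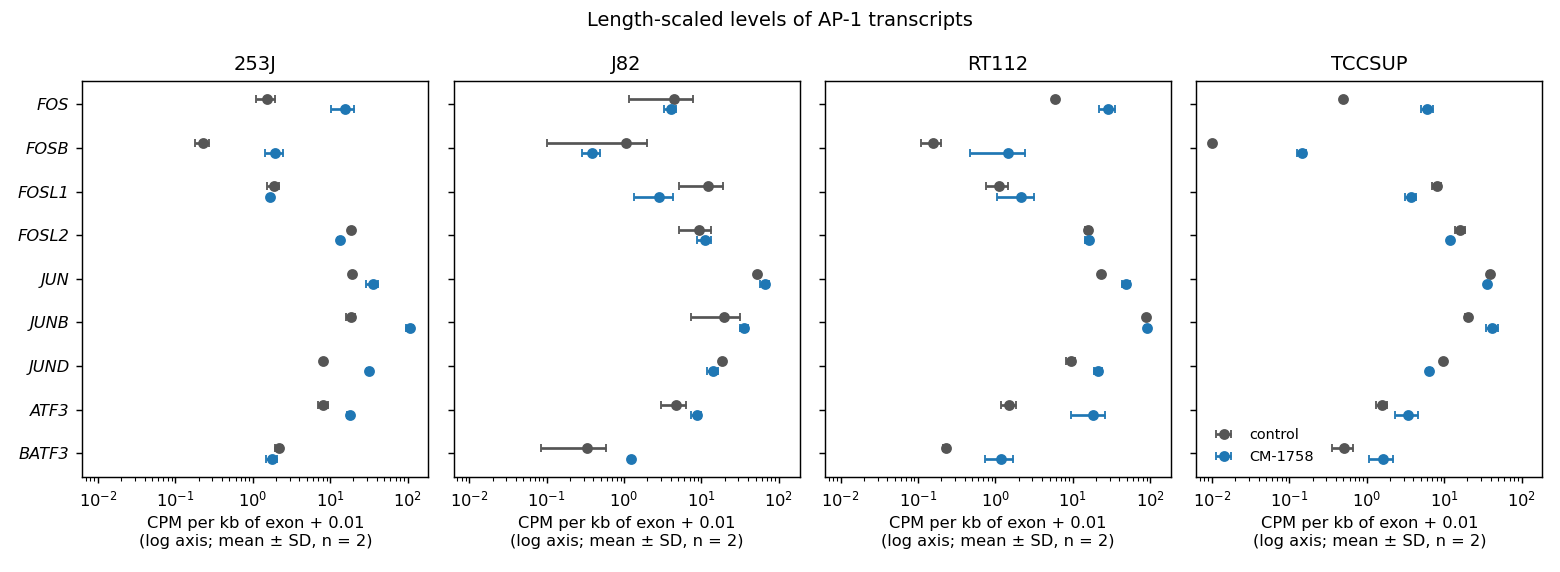
Level of each AP-1 gene in CPM per kilobase of exon (log axis, 0.01 added; mean ± SD of 2 libraries) in control and CM-1758 cells of each cell line. JUNB moves from 18.4 to 107 in 253J and is 89.1 and 91.6 in RT112.

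Summed over each family on the same scale, JUN, JUNB and JUND together went from 46.0 ± 1.76 to 174 ± 14.6 CPM per kilobase in 253J, 122 ± 2.90 to 161 ± 2.05 in RT112, 68.5 ± 0.474 to 84.2 ± 9.29 in TCCSUP and 89.8 ± 11.6 to 115 ± 7.30 in J82. FOS, FOSB, FOSL1 and FOSL2 together went from 22.1 ± 0.385 to 32.3 ± 6.28 in 253J, 22.9 ± 1.82 to 48.0 ± 10.2 in RT112, 24.8 ± 3.33 to 21.9 ± 0.0550 in TCCSUP and 26.8 ± 6.90 to 18.2 ± 3.12 in J82. The JUN transcripts thus outweighed the FOS transcripts in every group. These sums are descriptions and were not tested.

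Over the 16 libraries the log2 CPM of FOS and FOSB varied together most among the members (Pearson r = 0.829), followed by FOSB and ATF3 (0.785), FOS and JUNB (0.732) and FOSB and JUND (0.732), and the lowest values were for FOSL1 and JUNB (-0.610) and FOSL2 and JUN (-0.592). Libraries of 1 cell line and treatment share their source, so these are descriptions. The genes outside the family whose pattern over the libraries was most like a member, among 10010 with a mean log2 CPM above 3, were GOT1 (r = 0.928) for FOS, MINK1 (0.893) and AKAP8L (0.891) for FOSB, NLRC5 (0.943) and USP4 (0.925) for FOSL1, and TTYH3 (0.912) for FOSL2. For the JUN family they were FYN (0.957) and CYTH3 (0.940) for JUN, AP1B1 (0.948) and GM2A (0.943) for JUNB, and MED29 (0.927) and RGP1 (0.896) for JUND. For ATF3 they were CXCL8 (0.917), a chemokine gene on the list of AP-1 targets used here, and ZNF483 (0.911), and for BATF3 VASH1 (0.910) and DOCK4 (0.907).

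The other genes of the pathway were taken from 5 lists written from general knowledge. Their counts stand against all tested genes, of which 28.8% were called higher and 22.4% lower in 253J, 24% and 18.5% in J82, 27.4% and 20.2% in RT112, and 32% and 22.1% in TCCSUP, with medians of 0.10, 0.05, 0.12 and 0.20. Of 24 other immediate-early genes, 17 rose and 1 fell in 253J, 18 and 1 in RT112, 12 and 2 in TCCSUP, and 9 and 1 in J82, with median log2 fold changes of 1.20, 1.58, 1.07 and 0.98. The shares called higher were 70.8%, 75%, 50% and 37.5%, and those called lower 4.17% to 8.33%. NR4A3, an orphan nuclear receptor, rose in all 4 cell lines, from 0.0383 to 6.27 CPM in 253J, 0.0339 to 3.88 in RT112, 0.0791 to 5.77 in TCCSUP and 1.36 to 8.25 in J82. EGR2, a zinc finger factor, also rose in all 4, from 1.44 to 7.06 CPM in TCCSUP and from 0 to 2.23 in RT112. ARC rose in 253J, RT112 and TCCSUP, from 0.629 to 12.9 CPM in RT112, and EGR3 in the same cell lines, from 0.0937 to 1.06 in 253J. In J82 the controls of ARC differed as those of FOSB did but in the other direction, with 43 reads in replicate 1 and 5 in replicate 3. The J82 controls of NR4A3 differed in the same direction as those of ARC, with 66 and 6 reads.

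Of 16 other bZIP genes, possible partners or competitors of AP-1 proteins, 7 rose and 4 fell in 253J, 8 and 3 in RT112, 7 and 2 in TCCSUP, and 3 and 5 in J82, with medians of 0.47, 0.60, 0.34 and -0.17. The shares called higher were 43.8%, 50%, 43.8% and 18.8%, the last below that of all genes, and those called lower were 25%, 18.8%, 12.5% and 31.2%. MAFA, a large MAF factor, rose in all 4 cell lines, from 1.59 to 7.93 CPM in RT112. MAF rose in J82, RT112 and TCCSUP, from 1.70 to 11.7 CPM in RT112. JDP2, a bZIP protein known to repress AP-1, fell by 2.67 on the log2 scale in 253J (12.8 to 2.03 CPM), by 1.69 in TCCSUP (35.0 to 10.8) and by 1.04 in RT112 (17.2 to 8.39). In J82, JDP2 was 24.2 and 24.7 CPM, a log2 fold change of 0.03 ± 0.22.

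Of 28 upstream kinases and transcription factors, 10 rose and 6 fell in 253J, 9 and 5 in J82, 11 and 5 in RT112, and 6 and 7 in TCCSUP, with medians of 0.27, 0.15, 0.13 and -0.07. The shares called higher were 35.7%, 32.1%, 39.3% and 21.4%, and the shares called lower, 21.4%, 17.9%, 17.9% and 25%, were near those of all genes. MEF2D, a factor that binds the JUN promoter, rose in all 4 cell lines, from 4.01 to 16.4 CPM in 253J and from 11 to 46.6 in TCCSUP. MEF2C rose in all 4 as well, from 0.417 to 4.66 in RT112. MAP2K3, a kinase that activates p38, rose in all 4, from 14.6 to 89.8 CPM in 253J, whereas the related MAP2K6 rose in 253J, J82 and TCCSUP and fell by 0.69 on the log2 scale in RT112 (25.3 to 15.8).

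Of 18 genes that restrain the pathway, 8 rose and 2 fell in 253J, 7 and 3 in J82, 8 and 5 in RT112, and 9 and 3 in TCCSUP, with medians of 0.72, 0.24, 0.42 and 0.79. The shares called higher were 44.4%, 38.9%, 44.4% and 50%, and those called lower 11.1%, 16.7%, 27.8% and 16.7%. DUSP5, a nuclear phosphatase of ERK, rose in all 4 cell lines, from 48.4 to 179 CPM in 253J and from 42.0 to 105 in TCCSUP. DUSP6, its cytoplasmic relative, rose in 253J, J82 and TCCSUP, from 19.3 to 106 CPM in TCCSUP, and fell by 0.58 on the log2 scale in RT112. DUSP10 rose in 253J, RT112 and TCCSUP, from 42.0 to 133 CPM in RT112, and SPRY1, a feedback inhibitor of receptor signalling, in J82, RT112 and TCCSUP.

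Of 32 genes known as AP-1 targets, 30 were tested and SPRR1A and SPRR1B were not. In 253J 10 rose and 6 fell, in J82 10 and 2, in RT112 16 and 4, and in TCCSUP 13 and 8, with medians of 0.38, 0.45, 1.05 and 0.84. The shares called higher were 33.3%, 33.3%, 53.3% and 43.3% and those called lower 20%, 6.67%, 13.3% and 26.7%, which in 253J is about the share of all genes in both directions. With genes that had 0 reads in 1 of the groups set to their bound against the floor, these medians were 0.00, 0.28, 1.05 and 0.56, and the medians of the other lists and of the members were the same. The targets named below have the largest mean changes among those called in the same direction in 3 or more cell lines. All of them rose on average, so the targets called lower are not named. MMP13, a collagenase, rose in 253J, RT112 and TCCSUP, from 26.3 to 152 CPM in RT112. MMP10, a stromelysin, was called higher in all 4, from 2.40 to 7.27 CPM in RT112. It stayed scarce in J82 (0 to 0.275 CPM) and TCCSUP (0 to 1.06). SERPINB2, an inhibitor of plasminogen activators, was called higher in all 4 cell lines, from 96.9 to 427 CPM in TCCSUP and from 7.31 to 46.1 in RT112. In J82 it went from 0 to 0.907 CPM. In 253J it went from 0 to 0.110, which is about the floor of 3 reads per library. AREG, a ligand of the EGF receptor, rose from 23.4 to 610 CPM in TCCSUP (log2 fold change 4.71 ± 0.28) and from 5.15 to 91.2 in RT112, and from 0.0570 to 2.34 in J82. In 253J, where control AREG was 255 CPM, it was 189 with CM-1758 (log2 fold change -0.43 ± 0.24, adjusted p = 0.1434).

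**Figure D5:**
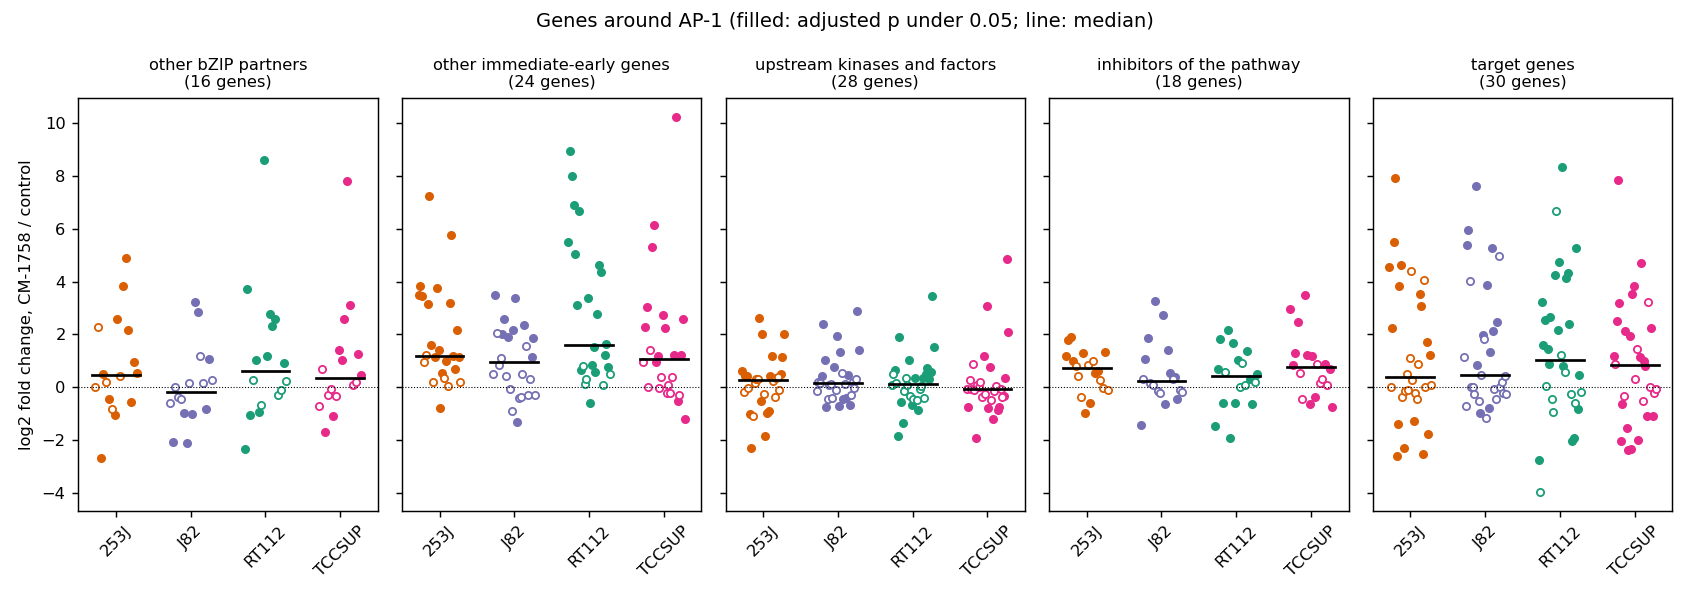
Log2 fold change of CM-1758 over control for the tested genes of 5 lists around AP-1 in each cell line; filled points have an adjusted p under 0.05 and the black lines are the list medians. Within each cell line the median of the immediate-early genes, 0.98 to 1.58, is the farthest above 0. The highest points come from genes with 0 or near 0 reads in control cells and are no bound.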

How the data were processed

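The authors deposited 1 table of raw counts, whole reads per gene symbol, for 16 libraries. Per the study's methods these were stranded total RNA libraries depleted of ribosomal RNA, and the submitters' processing notes name HISAT2, StringTie and GRCh37 without role or version. The counter and its strand setting are not given in the sources used here. The study's legend calls the 2 libraries of a group independent experiments.

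After filterByExpr with the 8 groups, counts were scaled by TMM and fitted in 1 model of 8 groups with the quasi-likelihood test of edgeR 4.0.16 in R 4.3.3 (limma 3.58.1), leaving 8 residual degrees of freedom. p-values were adjusted by Benjamini-Hochberg over all 21297 tested genes within each comparison, and a call needed an adjusted p under 0.05. Standard errors were taken as the absolute log2 fold change over the root of its F statistic. CPM used TMM-scaled library sizes, and log2 CPM a prior count of 2. DESeq2 1.42.0, the tool of the study, was an alternative, and its limits (log2 fold change of 2, adjusted p of 0.01) a second rule. The floor was 3 counts per library. Scripts were tested on simulated data.

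The members and the lists were chosen with earlier results of these data known. Named are all 9 members, the 2 genes most correlated with each, and of each list up to 4 genes with the largest mean change among those called in the same direction in 3 or more cell lines. A few genes that meet this rule are not reported here. Promoter sequences are RefSeq's on GRCh38.p14, and exon lengths are from GENCODE 29 on GRCh38, not the authors' build. The main model did not pair libraries by replicate number. Alternatives were other scalings, filters and tools, fits of 1 cell line alone, a replicate block, leaving out 7 small noncoding RNA genes and leaving out each library. The lists were described by counts and medians and were not tested as sets.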

Additional observations from a re-analysis of the deposited data

Results flagged for a closer look

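The effect of CM-1758 differed between the 4 cell lines, by the F test of the difference itself in edgeR, in 8 of the 9 AP-1 genes. The adjusted p was 4.814e-07 for JUND, 0.0002714 for FOS, 0.0005645 for ATF3, 0.0008074 for FOSB, 0.001067 for JUN, 0.001146 for JUNB, 0.005386 for FOSL1 and 0.01476 for BATF3. Of all tested genes, 51.9% differed in the same way. JUND rose in 253J and RT112 and fell in J82 and TCCSUP, and both falls lost their call under some alternatives. JUNB rose everywhere but in RT112, JUN rose in 253J and RT112, and BATF3 rose everywhere but in 253J. The JUNB and BATF3 rises in J82 and TCCSUP also lost their call under some alternatives, and JUN in J82 gained a call under some. With J82 left out of the comparison the difference was no longer called for FOS (adjusted p = 0.1337) and FOSB (adjusted p = 0.4344), which were higher in every treated library than in any control of the same cell line in 253J, RT112 and TCCSUP. The part of the unlike J82 controls in the difference was not tested further.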

How the results depend on the processing

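With 2 libraries per group the spread is shared over genes and groups, and when 1 library is left out the lone library left is assumed to vary like the others. Effects of a cell line were also counted when the library left out came from another cell line, which barely moves the fold change. Most of the 720 values below are of this kind, so their total overstates how stable a value is to the loss of its own libraries. For single AP-1 genes, 672 of 720 values kept their direction and their side of the threshold when 1 library was left out, 28 lost and 11 gained the call, and 9 changed sign. Under the other alternatives 378 of 431 did, 36 lost and 11 gained the call, and 6 changed sign. FOSB in TCCSUP rests on 22 and 17 reads, and BATF3 on less than 2.3 CPM in every library.

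Leaving out 1 library gave 5 to 6 members higher and 0 to 1 lower in 253J, 1 to 4 higher and 1 to 3 lower in J82, 6 to 7 higher in RT112, and 2 to 5 higher and 0 to 3 lower in TCCSUP. The average effect gave 0 to 2 members lower. Inhibitors called ranged from 6 to 10 in J82 and 7 to 13 in TCCSUP, and upstream genes called in RT112 from 8 to 19. Signs changed in J82 for FOS (-0.75 to 0.93, positive without control replicate 3 or CM-1758 replicate 1) and, without control replicate 3, for FOSB (-2.18 to 0.032) and FOSL2 (-0.14 to 0.80), in 253J without control replicate 3 for FOSL1 (-0.34 to 0.021), and in RT112 for FOSL2 (-0.10 to 0.12, negative without control replicate 1 or CM-1758 replicate 2) and JUNB (-0.040 to 0.11, negative without control replicate 1 or CM-1758 replicate 1). The causes were not tested.

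In J82, 2 members were lower, and this became 1 with RLE normalization, library size alone, DESeq2 in 1 model or by cell line, edgeR by cell line, no filter, at least 10 counts in every library, and the stricter rule. Library size alone moved the median of all genes by 0.145 to 0.311, left 0 members lower in TCCSUP and 0 on average, and turned the sign of FOSL1 in 253J (0.10), FOS in J82 (0.015), JUN in TCCSUP (0.21) and FOSL2 on average (0.060). DESeq2 in 1 model left 1 lower in TCCSUP. Fits of 1 cell line alone gave 1 member lower in 253J with either tool, 6 upstream genes in J82 with either, 5 (DESeq2) and 6 (edgeR) inhibitors in J82, and with DESeq2 1 member higher in J82. At least 10 counts in every library, which tests fewer genes, gave 11 immediate-early genes in 253J, 4 targets in J82, 6 other bZIP genes and 9 targets in RT112, and in TCCSUP 3 members higher, 1 lower, 5 other bZIP genes, 8 immediate-early genes and 12 targets, with JUN in TCCSUP at 0.053. The stricter rule gave 3 members higher in 253J, 0 in J82 and 2 in TCCSUP, 0 lower in TCCSUP, and 2 higher and 0 lower on average. Its counts for other bZIP genes, immediate-early genes, upstream genes, inhibitors and targets were 5, 8, 4, 0 and 10 in 253J, 4, 5, 2, 2 and 4 in J82, 6, 10, 1, 1 and 12 in RT112, and 3, 7, 3, 3 and 10 in TCCSUP. With J82 left out of the comparison, chosen after seeing the data, 0 members were lower on average.

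For libraries of the same replicate number, deviations from the group mean over all tested genes correlated at 0.017 to 0.218 between control and treated cells. The highest value was in J82, and in 253J only replicate 3 was in both groups. Low values over all genes cannot exclude that replicates were paired. With the replicate block FOS in J82 turned to 0.026, and JUN in J82 (0.35, adjusted p = 0.03637), FOSL1 in RT112 (0.89, adjusted p = 0.007222) and FOSL2 in TCCSUP (-0.43, adjusted p = 0.0195) gained a call. 0 calls of members were lost.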
